A study of Mus musculus with 7 samples.

Results

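Dense clusters of accessible sites away from promoters were described in LSK cells, the Lineage- c-Kit+ Sca-1+ fraction of bone marrow that holds hematopoietic stem and progenitor cells (HSPCs). ATAC-Seq was used to measure accessibility: a transposase cuts chromatin where it is open, and cut sites pile up into peaks. Members were chosen by measured values, namely that a peak was called in every library and that such peaks lie close together. Peaks of all libraries were merged into 172227 autosomal regions (mm10), of which 105631 were called in all 7 libraries. Of these, 83323 lay more than 2000 bp from every start site of a protein-coding transcript and are called distal here. Distal regions no more than 12.5 kb apart were joined, which gave 32723 groups, and the 3102 groups with 6 or more regions are the dense clusters. They hold 28166 regions, 33.8% of the distal regions, although they make up 9.48% of the groups. The other distal regions form 13799 groups of 2 to 5 regions, with 39335 regions, and 15822 regions that stand alone.

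There were 3 Ctrl and 4 WTAkita libraries, each from 50000 sorted cells. All donors were wild-type C57/BL6 mice taken as adults of 8 to 12 weeks. WTAkita mice are the wild-type pups of Ins2Akita/+ dams, whose mutated insulin gene makes them diabetic, and Ctrl mice were born to normal pregnancies. Per the methods of the study, Ins2Akita/+ females and their wild-type sisters were both given a high-fat diet ahead of mating. The offspring carry no mutation, so the groups differ in the pregnancy and not in genotype. The sources used here do not say how many mice went into a library, and p-values measure the spread between these libraries.

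Enhancers are stretches of DNA that bind transcription factors and act on promoters from a distance, and they are open in the cells that use them. Genes that set the identity of a cell are often surrounded by many such sites within a short stretch, an arrangement known in hematopoietic cells from the loci of Runx1, Tal1, Gfi1b and Cebpa. Open distal chromatin also includes sites of CTCF, a protein that holds chromatin loops, and no histone mark was measured, so the clusters are described as accessible sites and not as active enhancers. The gene named for a cluster is the one with the nearest start site of a protein-coding transcript, which is a label of position and not a target.

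The value of a region in a library was its highest fold enrichment, the ratio of the pileup of cut sites at a summit to the background around it, and the value of a cluster was the sum over its regions. Libraries were of unequal strength: cluster regions had a median fold enrichment of 6.83, 7.93 and 7.49 in Ctrl 1 to 3 and 6.07, 6.71, 7.82 and 8.06 in WTAkita 1 to 4. WTAkita 1, WTAkita 2 and Ctrl 1 were the 3 lowest libraries, so that low libraries occurred in both groups. The group means did not differ beyond this spread (7.42 ± 0.56, SD, n = 3, against 7.17 ± 0.93, n = 4; exact permutation test over 35 splits, two-sided, p = 0.743, where the smallest possible p is 0.0571). No pair of libraries was a duplicate (r of log2 values over the cluster regions 0.925 to 0.953). Start sites of all 10 LSK markers had a peak in all 7 libraries, as had 5 of 9 lineage genes and 10 of 20 genes of other tissues; Cd8a had none and Ly6g had one in 1 library. An open start site was thus no mark of LSK cells alone.

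The sequences below are those at the strongest region of 7 clusters that recur in the results. Each run is 200 bases of the plus strand of mm10 around the highest summit. Capitals mark matches, on either strand, to short words of factors known in HSPCs. These were AGATAA for the GATA factors, TGTGGTT for RUNX factors, AGGAAGT for the ETS family, TGACTCA for the AP-1 dimer, CAGCTG for the E-box of helix-loop-helix factors, CTGTCA for the MEIS family and TTGCNNAA for C/EBP factors. For CTCF the word AGGGGGC was searched, and a longer word of its core with some free bases, which was added after these sequences were read and can overlap the short one. The E-box word reads the same on both strands.
Gse1, chr8:120456399-120456598: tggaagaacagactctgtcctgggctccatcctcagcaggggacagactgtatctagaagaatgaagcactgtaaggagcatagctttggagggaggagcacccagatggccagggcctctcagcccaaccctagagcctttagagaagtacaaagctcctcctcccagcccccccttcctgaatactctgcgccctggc
Klf14, chr6:31240124-31240323: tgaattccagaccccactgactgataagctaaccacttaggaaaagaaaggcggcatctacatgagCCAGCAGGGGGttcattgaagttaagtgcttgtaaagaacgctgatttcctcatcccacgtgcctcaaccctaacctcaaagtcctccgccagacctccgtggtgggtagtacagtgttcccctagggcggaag
Id2, chr12:25157287-25157486: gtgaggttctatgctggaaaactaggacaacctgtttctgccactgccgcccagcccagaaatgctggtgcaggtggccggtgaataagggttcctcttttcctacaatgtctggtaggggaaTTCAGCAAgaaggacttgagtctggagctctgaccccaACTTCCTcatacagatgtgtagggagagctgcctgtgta
Tal1, chr4:115038278-115038477: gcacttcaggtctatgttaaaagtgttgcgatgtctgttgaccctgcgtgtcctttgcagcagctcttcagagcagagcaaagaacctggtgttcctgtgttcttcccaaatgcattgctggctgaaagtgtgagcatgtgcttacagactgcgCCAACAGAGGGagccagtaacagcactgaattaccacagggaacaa
Zfpm1, chr8:122163073-122163272: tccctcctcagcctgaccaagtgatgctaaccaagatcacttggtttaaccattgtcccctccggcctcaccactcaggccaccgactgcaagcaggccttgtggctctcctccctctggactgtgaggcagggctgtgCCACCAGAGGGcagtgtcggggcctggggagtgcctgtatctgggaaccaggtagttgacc
Cebpb, chr2:167697924-167698123: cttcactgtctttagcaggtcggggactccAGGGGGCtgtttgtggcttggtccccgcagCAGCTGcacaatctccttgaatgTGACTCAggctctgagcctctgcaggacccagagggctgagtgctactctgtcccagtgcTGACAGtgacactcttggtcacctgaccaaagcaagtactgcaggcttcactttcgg
Irs2, chr8:10971564-10971763: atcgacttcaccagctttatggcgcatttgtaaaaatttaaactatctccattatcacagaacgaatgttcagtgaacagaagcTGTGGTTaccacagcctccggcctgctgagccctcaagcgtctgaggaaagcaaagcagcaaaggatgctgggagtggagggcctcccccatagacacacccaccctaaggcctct
The windows of Klf14, Tal1 and Zfpm1 each held the longer CTCF word and no other word. The Irs2 window held 1 RUNX word, and the Id2 window 1 ETS and 1 C/EBP word. The Cebpb window held 4 kinds of word (AP-1, E-box, CTCF and MEIS), and the Gse1 window held none of the words searched. The Gse1 site lay in an intron of this gene, the Zfpm1 site in an intron of another gene, and the Tal1 site over an exon of its neighbour Stil. The sites labelled Klf14, Id2, Cebpb and Irs2 lay outside protein-coding genes, and noncoding genes were not considered here. A match says only that the letters are there.

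A dense cluster had a median of 8 regions (6 to 65) over a span of 36.9 kb (7.21 to 292 kb). Its summed fold enrichment, as a mean over libraries, was 72.0 in the median and ran from 20.5 to 448. The strongest region gave 24.2% of the sum in the median cluster and at most 52.8%. There were 915 clusters of 10 or more regions, 94 of 20 or more and 15 of 30 or more. The limit of 6 regions cuts a continuous distribution, since the 898 groups with 6 regions had a median sum of 54.4 and the 1320 groups with 5 regions a median sum of 45.9. Together the spans cover 131437321 bp, 5.34% of the autosomes.

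The clusters lay close to genes without being confined to them. The median distance to the nearest coding start was 6.98 kb, 997 clusters (32.1%) had such a start within the span, and 890 (28.7%) overlapped no coding gene. Of the member regions, 47.3% were in introns and 4.60% in exons of protein-coding genes, and 48.1% lay outside these genes. The last share includes sites in noncoding genes. MicroRNA genes were found in 150 spans, with 177 of 2054 autosomal microRNA genes (8.62%) lying inside. In all, 2597 genes were the nearest gene of a cluster, and 394 of them of 2 or more. Foxn3, a forkhead repressor, was nearest to 6 clusters with 53 regions, and Foxp1, a forkhead factor of lymphoid development, to 5 with 55 regions.

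The cluster with most regions and the highest sum lay within Gse1, which codes for a protein of histone deacetylase complexes (chr8:120240550-120532875, 65 regions over 292 kb). It reached sums of 439, 476 and 465 in Ctrl 1 to 3 and 377, 403, 485 and 492 in WTAkita 1 to 4. The groups overlapped, with WTAkita 1 and 2 lowest and WTAkita 4 highest. The next highest sum (348 ± 15.7 in Ctrl, SD, n = 3, and 348 ± 35.0 in WTAkita, n = 4) belonged to 43 regions on chromosome 6 (chr6:31071703-31259259) whose nearest coding start, that of Klf14, was 113 kb away. This span holds the starts of the long noncoding genes Lncpint, known as a target of p53, and Gm13833. A cluster of 47 regions at Zmiz1, a coactivator known to act with Notch1, had sums of 325, 348 and 355 in Ctrl and 295, 312, 359 and 368 in WTAkita.

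The other clusters among the 10 largest or the 10 highest showed the same overlap between groups. At 9.50 kb from Tomm20, a receptor of mitochondrial protein import, 36 regions summed to 329 ± 27.6 in Ctrl and 323 ± 34.7 in WTAkita. At 59.9 kb from Id2, an inhibitor of helix-loop-helix factors that is known to restrain B cell fate, 30 regions summed to 317 ± 11.9 and 306 ± 28.6. At Chst15, a sulfotransferase of chondroitin chains, 29 regions summed to 282 ± 17.8 and 272 ± 31.4. Further clusters of this size lay at Cstad (34 regions), Cryaa (32), Cmip and Socs3 (31 each) and Pip4k2a (30), with mean sums of 234 to 261 over the 7 libraries. Runx2 and Cxxc5 tied with 31 regions and Bcl2l14 with 30, and they were not described further. The plot of sums by library shows that the spread within a group followed the strength of the library, with WTAkita 1 the lowest in all 14 clusters drawn.

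**Figure D1:**
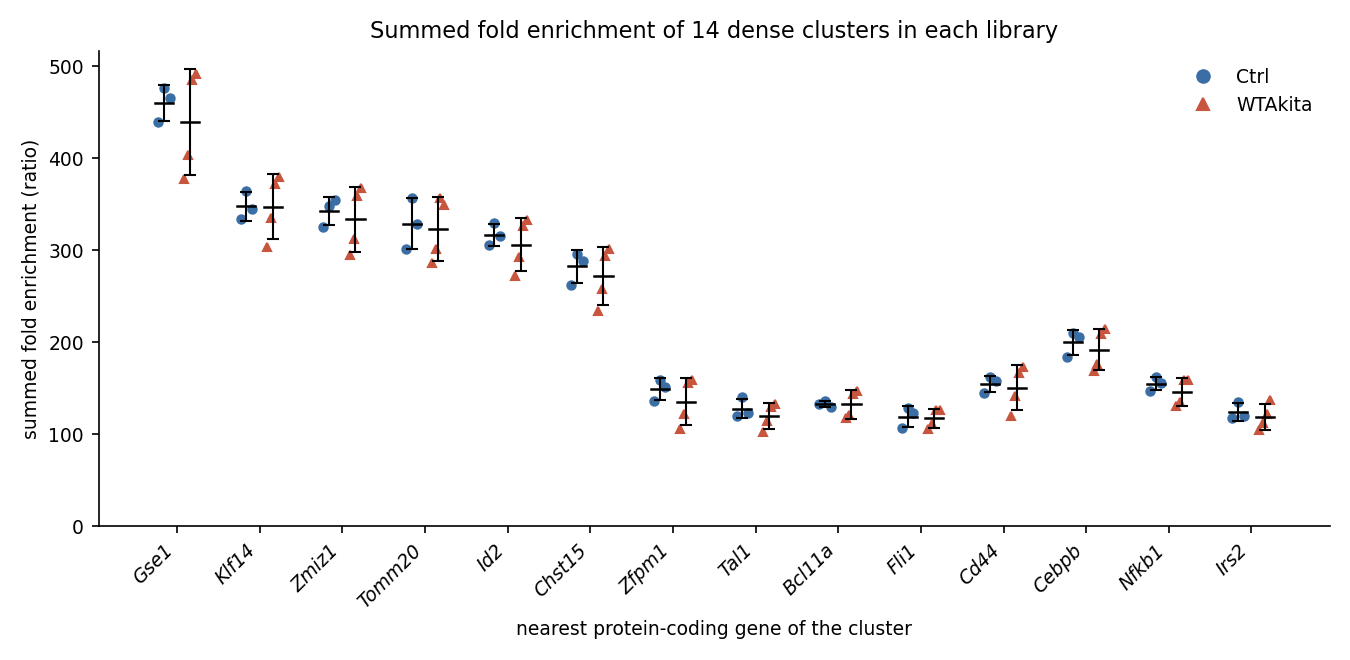
Summed fold enrichment (vertical axis, ratio) of 14 dense clusters, named by their nearest gene, in the 3 Ctrl (circles) and 4 WTAkita libraries (triangles), with the mean (bar) and SD (error bar) of each group. The Gse1 cluster reaches 377 to 492, and in every cluster the symbols of the groups overlap.

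A few clusters, among them the second and the fourth by number of regions, were arrays of repeated DNA. In 10 clusters with 167 regions the median region shared at least 50% of its 25-base words with another region of the same cluster, whereas in 3060 clusters (98.6%) the median region shared none. The cluster labelled Rhou (chr8:123538678-123644223, 53 regions) spans 51 annotated rRNA genes of the 5S array, and 50 of its regions hold the start of one. Its regions followed each other every 1707 bp in the median (quartiles 1672 and 1734 bp), had a median GC content of 71.0% and were soft-masked as repeats over a median of 83.5% of their length. The 46 regions labelled Atg7 (chr6:114494970-114634480) had no such gene and recurred every 2469 bp (quartiles 2398 and 2522 bp). For comparison, the Gse1 regions were 3973 bp apart in the median with quartiles of 2321 and 6628 bp. One stretch of 120 bases from each array is shown because it is repeated without a change in the next region.
5S rRNA array, chr8:123593185-123593304: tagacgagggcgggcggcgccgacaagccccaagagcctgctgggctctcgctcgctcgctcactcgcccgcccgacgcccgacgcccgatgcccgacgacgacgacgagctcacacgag
Array near Atg7, chr6:114611959-114612078: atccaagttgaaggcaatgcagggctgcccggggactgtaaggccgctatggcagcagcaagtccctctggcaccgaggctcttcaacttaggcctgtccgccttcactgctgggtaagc
The first occurs again 1683 bp further on and in 13 of the 53 regions in all, and the second 2458 bp further on and in 4 of 46. Reads from such copies cannot be assigned to one of them with certainty, and how the aligner treated them is not stated in those sources, so values at these 10 clusters are uncertain. The others were labelled Ezh2 (55.4 kb away), Pdia4, Gm13694, Eapp, Fcgr3, 4930449I24Rik, Tmem267 and Ugt1a6a. Without these 10, 3092 clusters remained. The search compared regions of the same cluster only, so copies elsewhere in the genome were not counted.

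**Figure D2:**
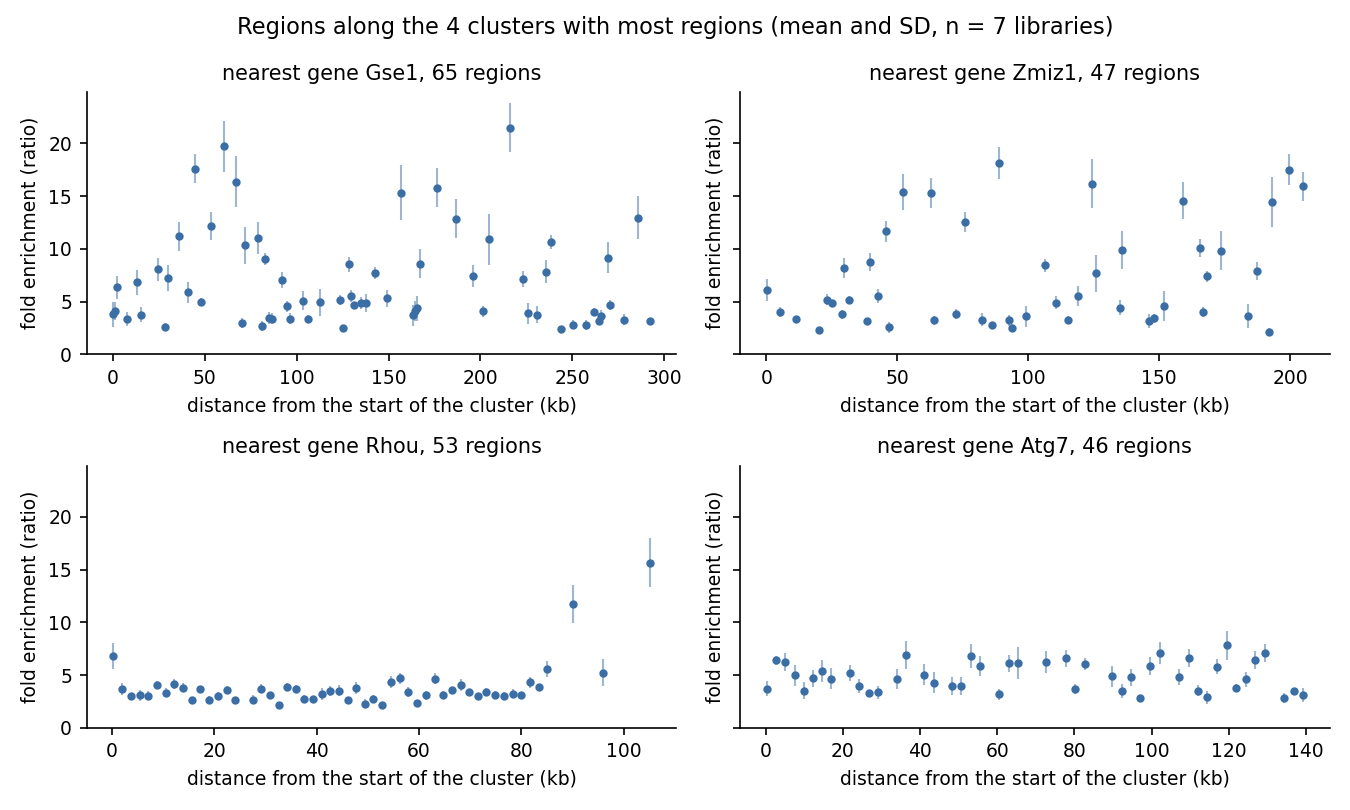
Fold enrichment (vertical axis, ratio; mean and SD over 7 libraries) of each region against its distance in kb from the start of the cluster, for the 4 clusters with most regions. At Gse1 and Zmiz1 regions of unequal height lie at irregular distances and reach 21.5 and 18.2, whereas the arrays labelled Rhou and Atg7 have mostly evenly spaced regions with medians of 3.37 and 4.80.

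Whether a region in a dense cluster was a strong or a weak site depended on the background it was set against. By the deposited fold enrichment, cluster regions were the weakest distal class, with a median of 7.27 against 8.12 in groups of 2 to 5 and 8.27 for lone regions. The caller divides each summit by the background around it when this exceeds that of the whole library. Solving the deposited values for both parts gave a local background that was 1.93 times the genome-wide background of the library at the median cluster region, 1.18 times in groups of 2 to 5 and 1.00 times at lone regions. Set over the genome-wide background instead, the order turned: the median was 13.9 in dense clusters, 11.1 in groups of 2 to 5 and 9.05 for lone regions.

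The place of dense clusters in both orders held in each library. Over the local background, the median of cluster regions (6.07 to 8.06) was below that of lone regions (6.25 to 9.58) in 7 of 7 libraries. Over the genome-wide background it was above (10.7 to 15.9 against 6.86 to 10.5) in 7 of 7. On the local scale lone regions and groups of 2 to 5 tied in Ctrl 1 and WTAkita 2 and changed places in WTAkita 1. Regions near start sites were highest on both scales (10.4 and 33.2). Because the rule used the density of sites, which feeds the local background, these values are a description and were not tested. Larger clusters showed it more: clusters of 6 to 7 regions had a median sum of 58.2 over the local and 109 over the genome-wide background, and clusters of 15 or more had 156 and 396.

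**Figure D3:**
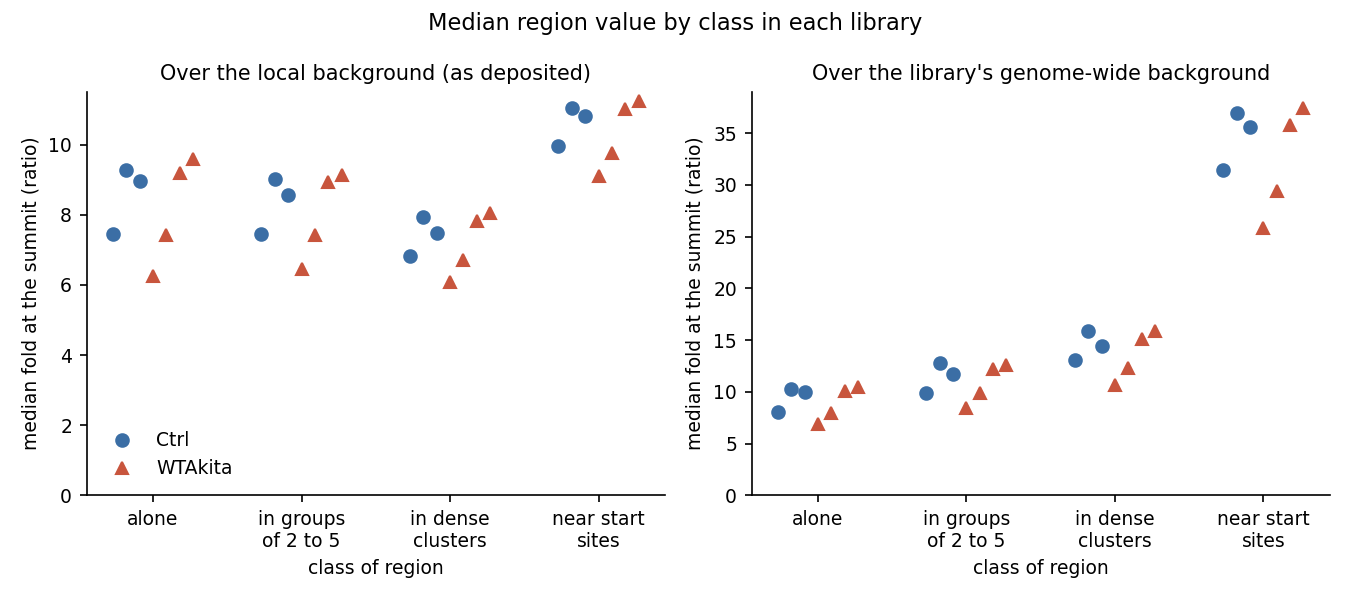
Median fold at the summit (vertical axes, ratio) of regions alone, in groups of 2 to 5, in dense clusters and near start sites, over the local background (left) and over the genome-wide background of the library (right), for the Ctrl (circles) and WTAkita libraries (triangles). Dense clusters are below lone regions on the left (7.27 against 8.27 over all libraries) and above them on the right (13.9 against 9.05).

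The ratio of local to genome-wide background also singled out unusual clusters. It was 1.88 in the median cluster and over 5 in 154 clusters, 6 of which were among the 10 of repeated sequence. The highest ratios were 35.8 in a cluster labelled Scaf8, 29.8 and 22.0 in the repeated clusters labelled Ezh2 and Pdia4, and 16.9 in a cluster labelled Sfi1 (chr11:3104674-3180406). The clusters labelled Scaf8 and Sfi1 were not among those 10, and whether copies elsewhere affect their values was not tested. The Pdia4 cluster, 279th by the deposited sum (129), was first when summed over the genome-wide background (1629), just above Gse1 (1611).

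Cluster regions differed from lone distal sites in base composition and in the words they held. Their median GC content was 50.7%, against 48.7% in groups of 2 to 5, 47.3% for lone regions and 60.7% near start sites. In the 300 bp around the centre, the GATA word occurred in 12.2% of cluster regions and in 15.04% of lone regions, and the RUNX word in 13.7% and 15.4%. The E-box occurred more often in clusters (21.7% against 18.7%), as did the AP-1 word (9.18% against 8.18%), and the ETS word occurred in 24.03% and 24.1%. The part of the GC content in these shares was not tested. MEIS occurred in 24.01% of cluster and 22.01% of lone regions, C/EBP in 11.97% and 13.8%, and the short CTCF word in 8.22% and 7.31%. Over all 105631 regions the shares were 11.7% for GATA, 12.7% for RUNX, 19.99% for the E-box, 7.82% for AP-1 and 21.6% for ETS. They were 22.03% for MEIS, 11.6% for C/EBP and 8.99% for the short CTCF word. Groups of 2 to 5 lay between clusters and lone regions for GATA (13.3%), RUNX (14.6%), the E-box (20.2%) and AP-1 (8.64%). For ETS they were above both (24.4%).

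The longer CTCF word was rarer in dense clusters (16%) than in groups of 2 to 5 (19.2%) or lone regions (21.5%), with 17.1% over all regions. Within clusters it followed the rank of the region: it was found in 21.6% of the 3102 strongest regions, 19.1% of the second, 18.8% of the third and 14.1% of the weaker ones. This gradient depended on the background, since the region that was strongest over the genome-wide background held the word in 16.4% of clusters. The 4507 cluster regions with the word had a median fold enrichment of 8.65, against 7.02 for the others. Median differences between WTAkita and Ctrl were -0.021 (SD 0.145) with the word and 0.014 (SD 0.155) without it (log2 of normalized fold enrichment). These medians are small beside the SDs, and the gap between them was not tested. In limma, 3.51% and 3.64% of these regions had an unadjusted p under 0.05, against 3.86% of all regions, and none passed the adjusted threshold.

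Genes of HSPC identity were among those with a dense cluster beside them. Of all 20807 autosomal coding genes, 12.5% were the nearest gene of a dense cluster. Of 30 HSPC transcription factors, 19 (63.3%) were, with 34 clusters and 343 regions. Among 22 surface receptors and adhesion molecules of HSPCs, 9 (40.9%) were. The lists were chosen with results of these data known, and the distance between neighbouring genes was not taken into account, so these shares are a description.

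The 4 highest clusters of the transcription factors were those of Zfpm1, Bcl11a, Tal1 and Fli1. Zfpm1, the cofactor FOG-1 of GATA factors, was 84.3 kb from 16 regions (chr8:122135281-122197882) with sums of 136, 159 and 152 in Ctrl and 106, 122, 156 and 159 in WTAkita. Tal1, a helix-loop-helix factor needed for blood formation, lay inside its cluster (chr4:115035033-115104111, 12 regions), with sums of 120, 140 and 123 in Ctrl and 102, 114, 130 and 133 in WTAkita. In both, these WTAkita values ran from below to within the range of Ctrl. After normalization the groups still overlapped at Tal1, whereas at Zfpm1 the log2 sums of 7.175, 7.185 and 7.168 in Ctrl lay just above those of WTAkita, 6.999, 7.045, 7.165 and 7.157 (difference -0.084 ± 0.042, SE; limma, unadjusted p = 0.060, adjusted p = 1.00). Bcl11a, a zinc finger repressor of fetal globin, had 19 regions with sums of 133 ± 3.2 in Ctrl and 133 ± 15.5 in WTAkita, and Fli1, an ETS factor of stem cells and megakaryocytes, had 12 with 119 ± 11.4 and 118 ± 10.5. Mecom, Erg, Runx1, Cebpa, Lmo2, Myb, Gfi1b, Foxo3, Meis1, Prdm16, Hlf, Gfi1, Ikzf1, Etv6 and Tcf4 were the other factors with a cluster.

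Receptors were represented by Cd44, which binds hyaluronan (16 regions, sums of 155 ± 8.9 in Ctrl and 151 ± 24.6 in WTAkita), by Cd47, the signal that protects cells from phagocytosis (10 regions, 86.2 ± 12.8 and 85.7 ± 13.9), by Cd48, a SLAM protein (8 regions, 86.9 ± 7.1 and 80.8 ± 13.6), and by Cxcr4, the receptor that keeps HSPCs in the marrow. The Cxcr4 cluster had 7 regions at 103 kb from the gene, with sums of 82.5 ± 6.5 and 80.5 ± 10.1. Il6st, Itga6, Cd34, Kit and Slamf1 were the other receptors. Kit, the stem cell factor receptor used for the sort, had 2 clusters with 15 regions.

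Genes of inflammation and innate sensing had a cluster in 9 of 30 cases (30%). They were led by Nfkb1, a subunit of NF-kB (17 regions, sums of 155 ± 7.5 in Ctrl and 146 ± 15.2 in WTAkita), Irf8, which directs monocyte fate (15 regions, 118 ± 8.4 and 113 ± 19.5), and the NF-kB inhibitors Nfkbia (11 regions, 83.1 ± 3.4 and 82.6 ± 7.5) and Tnfaip3 (6 regions, 80.4 ± 7.5 and 78.7 ± 6.1). Nlrp3, the sensor of the inflammasome, was also the nearest gene of a cluster, with a difference between groups of -0.017 ± 0.052 (SE; unadjusted p = 0.746 in limma). Genes of insulin, glucose and oxidative stress had one in 8 of 23 cases (34.8%). Irs2, the adaptor of the insulin receptor, had 12 regions with sums of 118, 135 and 120 in Ctrl and 104, 112, 122 and 137 in WTAkita, and Igf1r, Bach2 and Igf2r had 13, 14 and 12 regions. The difference at Irs2 was -0.00031 ± 0.045 (SE). The sums above are before normalization, and a cluster lower in them can be higher after it. After normalization 53% of all dense clusters were higher in WTAkita. By list these were 25 of 34 clusters at the HSPC factors, 8 of 10 at the receptors, 9 of 15 at the inflammation genes, 3 of 14 at the genes of insulin and oxidative stress, 5 of 7 at the chromatin regulators, 3 of 5 at the myeloid genes, 2 of 4 at the B and T lineage genes, 1 of 2 at the erythroid and megakaryocyte genes and 2 of 3 at the genes of other tissues. These counts depend on the scaling, since without normalization the median difference of the dense clusters was -0.062 (log2). Several clusters can share a gene, and no test was made of these counts.

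The remaining lists ranged from 14.3% to 30.4%, against 12.5% of all coding genes. Regulators of DNA methylation and chromatin had a cluster in 7 of 23 cases (30.4%), led by Eed, a subunit of PRC2 (12 regions), the histone demethylase Kdm6b (13), Dnmt3a (9) and Tet1 (11). The cluster labelled Ezh2 in this list is one of the repeated arrays. Mature myeloid genes had one in 5 of 18 (27.8%), among them Cebpb, Itgam, Adgre1 and the repeated array at Fcgr3, with 26 regions at Cebpb (sums of 200 ± 13.7 in Ctrl and 192 ± 22.7 in WTAkita). B and T lineage genes had one in 4 of 20 (20%): Dntt, the polymerase of antigen receptor joints, Bcl11b, Tcf7 and Gata3. Erythroid and megakaryocyte genes had one in 2 of 14 (14.3%), Itgb3 with 22 regions and Vwf with 6. Of 20 genes of other tissues, 3 (15%) had one, among them Olig2 and Myog.

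**Figure D4:**
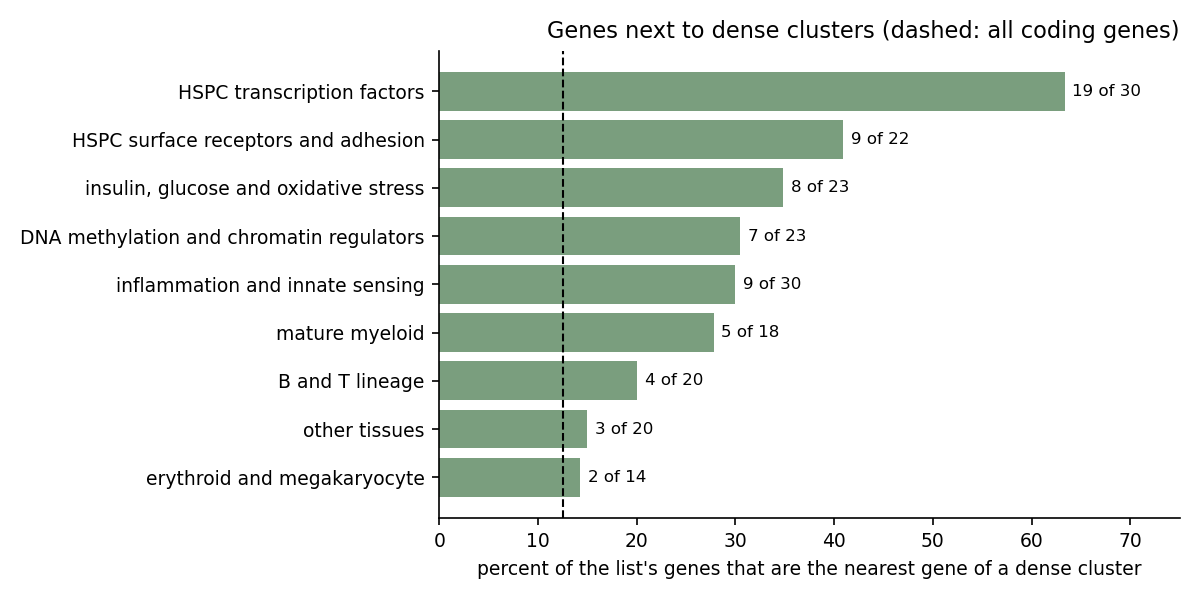
Percent of the autosomal genes of each list (horizontal axis) that are the nearest coding gene of a dense cluster, with the number of genes beside each bar and the share of all 20807 autosomal coding genes (12.5%) as a dashed line. HSPC transcription factors are highest at 63.3%, and erythroid and megakaryocyte genes are closest to the line at 14.3%.

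Gene segments of antigen receptors lay in 19 clusters with 167 regions. The Tcra and Tcrd locus held 10 of them (84 regions, chromosome 14), Igh 5 (42 regions, chromosome 12) and Tcrb 4 (41 regions, chromosome 6), while Igk, Igl and Tcrg held none. These clusters carry labels of neighbouring coding genes such as Olfr1507, nearest to 6, and Zfp386, nearest to 5.

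The first question between the groups was whether WTAkita cells had more or fewer dense clusters, or more of their accessibility inside them. Clusters took 23.8%, 23.5% and 23.5% of the summed fold enrichment of all regions in Ctrl and 23.9%, 23.7%, 23.6% and 23.6% in WTAkita. The means were 23.6% ± 0.19 (SD, n = 3) and 23.7% ± 0.13 (n = 4), a difference of 0.062 percentage points (exact permutation test, two-sided, p = 0.571). The highest share in each group was in its weakest library, Ctrl 1 and WTAkita 1. With the 3 weakest libraries left out the difference was 0.068 points, where 4 libraries allow no smaller p than 0.333.

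Clusters were also built in each library from its own distal peaks alone, with no condition on the other libraries. This gave 5001, 5497 and 5035 clusters in Ctrl and 4834, 5024, 5627 and 5513 in WTAkita. The groups overlapped (5178 ± 277 against 5250 ± 381, exact permutation test, two-sided, p = 0.857). Limited to the strongest distal peaks, 106855 to 107763 of them in each library, the counts were 4790 ± 73.0 and 4798 ± 43.6 (exact permutation p = 0.914), so that the spread between libraries narrowed. When all distal peaks of a library were used, 3067 of the 3102 clusters overlapped one built this way in all 7 libraries. The rule asked for regions called in all 7, so this largely follows from it and was no separate check.

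No dense cluster passed the test between WTAkita and Ctrl. After quantile normalization, limma over all 32723 groups of distal regions gave an adjusted p (Benjamini-Hochberg) of 1.00 for every dense cluster and called none of them (percent called over all groups, 0). At an unadjusted p under 0.05 there were 41 clusters higher in WTAkita (1.32%, against 1.19% of all groups) and 40 lower (1.29%, against 1.93%), near or below the background in both directions, and 2.61% in all, against 3.11%. Differences were above 0 in 1643 clusters (53%, against 46.7% of all groups). The sign of this balance depended on the scaling, since without normalization the median difference was -0.062 in the clusters and -0.074 in all groups. The excess of the clusters over all groups was 0.012 with and without normalization. With 1 library left out it ran from -0.0036 (without WTAkita 1) to 0.030 (without Ctrl 1). It was -0.00032 with the library median as covariate. Values of the libraries did not overlap between groups in 127 clusters (4.09%, against 4.53% of all groups), of which 59 were higher and 68 lower in WTAkita. In bulk libraries a change in the share of a cell type within the LSK fraction and a change in each cell cannot be told apart.

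The differences were narrow. Over the 3102 clusters they had a median of 0.0035 (log2 of the summed normalized fold enrichment) and an SD of 0.049, which is about the median standard error of 0.048. They ran from -0.25 to 0.18, with 90% between -0.080 and 0.080 and 1 cluster beyond 0.2 in size. Lone regions in the same fit had an SD of 0.18 and a median standard error of 0.18, and groups of 2 to 5 had 0.096 and 0.087. The SD was thus close to the standard error in each class. The narrower spread of clusters therefore does not show that they are steadier between the groups than lone regions. The range narrowed with size, from -0.25 to 0.18 in the 1469 clusters of 6 to 7 regions to -0.095 to 0.098 in the 273 clusters of 15 or more. A difference of more than 0.2 on this scale was thus seen in no cluster of 8 or more regions.

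**Figure D5:**
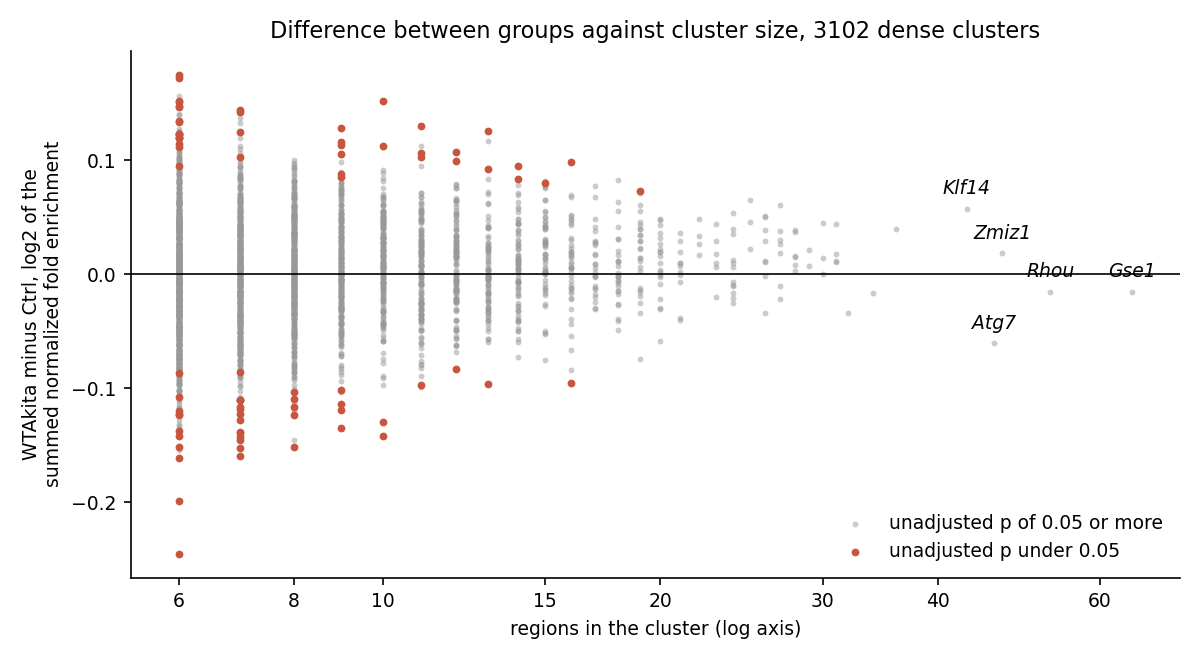
Difference between WTAkita and Ctrl (vertical axis, log2 of the summed normalized fold enrichment) of each of the 3102 dense clusters against its number of regions (horizontal log axis), with clusters at an unadjusted p under 0.05 in red. Points spread from -0.25 to 0.18 at the smallest clusters and lie near 0 at the largest, such as Gse1 at -0.015.

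The clusters with the largest statistics among those whose groups did not overlap are given as values, since none passed the adjusted threshold. Sema4f, a semaphorin, labelled 13 regions (chr6:82858204-82925376) whose normalized log2 sums were 6.84, 6.84 and 6.85 in Ctrl and 6.95, 7.03, 6.97 and 6.93 in WTAkita. The difference was 0.13 ± 0.036 (SE; limma, unadjusted p = 0.0029, adjusted p = 1.00), and 12 of its 13 regions were higher in WTAkita. Before normalization its sums overlapped (108, 125 and 121 against 103, 121, 135 and 135). Prep, a peptidase, followed with 10 regions within the gene and a difference of 0.15 ± 0.047, and Wdr26, a subunit of a ubiquitin ligase, with 7 regions that were all higher (0.14 ± 0.049). The others were labelled Armc2, Atf6 (a sensor of unfolded protein in the endoplasmic reticulum), Lemd2 at 104 kb, Prrc2b, Tram2, Itpr1 and Baz2b, with differences of 0.093 to 0.15.

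On the lower side, 7 regions at 5.38 kb from Cycs, which codes for cytochrome c, had normalized log2 sums of 6.52, 6.63 and 6.56 in Ctrl and 6.39, 6.44, 6.40 and 6.50 in WTAkita. None of its 7 regions was higher in WTAkita, and the difference was -0.14 ± 0.043 (SE; limma, unadjusted p = 0.0050, adjusted p = 1.00). Its sums before normalization were 86.6, 108 and 99.7 against 69.8, 80.0, 91.2 and 100, which overlap. Kcnj15, a potassium channel gene, was 38.3 kb from 7 regions with a difference of -0.16 ± 0.053, the largest of this set. Others were labelled Hs3st3b1, Fam189a1, Rpl38 at 181 kb, Aqp7, 1700017D01Rik, Cdh26 at 111 kb and Upk3bl, with differences of -0.15 to -0.12. The value at Rpl38 turned to 0.0068 when all summit lines of a region were summed. Among the HSPC factors 1 of 34 clusters had an unadjusted p under 0.05, a share near the 3.11% of all groups. It was that of Gfi1b, a repressor that acts in erythroid and megakaryocyte cells (0.11 ± 0.045, unadjusted p = 0.034, adjusted p = 1.00 in limma).

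Single regions of the clusters gave the same picture. Of 28166 member regions none passed the adjusted threshold (smallest adjusted p 1.00; percent called over all regions, 0), and at an unadjusted p under 0.05 WTAkita was higher in 515 (1.83%, against 1.76% of all regions) and lower in 504 (1.79%, against 2.1%), together 3.62% against 3.86%. Differences were above 0 in 14758 members (52.4%, against 52.1% of all regions). Values did not overlap between groups in 1452 regions (5.16%, against 4.72% of all regions). Their differences were wider than those of clusters, with 90% between -0.25 and 0.25.

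The region with the largest statistic lay in an intron of Itpr1, the IP3 receptor that releases calcium from the endoplasmic reticulum. Before normalization it had fold enrichments of 9.31, 10.8 and 13.2 in Ctrl and 13.3, 12.9, 16.3 and 19.8 in WTAkita. On the normalized log2 scale the values were 3.31, 3.30 and 3.63 against 3.999, 3.81, 3.91 and 4.16, a difference of 0.55 ± 0.12 (SE; limma, unadjusted p = 0.00027, adjusted p = 1.00). All WTAkita values were above all Ctrl values after normalization, and WTAkita 2 was below Ctrl 3 before it. The other higher regions were labelled Ang6, a ribonuclease of a gene family with many close copies, Prrc2b, Tmem173 and Kcnmb1, with differences of 0.29 to 0.75.

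The lower regions were labelled Svil, Mreg, Cacna1d, Adar and Ugt1a6a, with differences of -0.76 to -0.50. The Svil region had fold enrichments of 4.68, 6.25 and 6.67 in Ctrl and 3.31, 2.77, 3.89 and 3.28 in WTAkita, with no overlap. The Mreg region, a site outside protein-coding genes and 266 kb from the nearest coding start, had 10.1, 13.5 and 11.7 against 6.66, 6.46, 8.24 and 9.36, again with no overlap. The Ugt1a6a region belongs to a cluster of repeated sequence.

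Neighbouring regions of a cluster showed little correlation of their differences on the scale of the local background. Over 25064 pairs of neighbouring regions the differences between WTAkita and Ctrl had a Pearson r of -0.029, and -0.092 for the 4517 pairs less than 1 kb apart. These pairs share libraries and, when close, a local background, which nearby sites raise. The correlation was not computed over the genome-wide background. No region passed the adjusted threshold, so these values cannot show whether regions of a cluster change together. The GC content of the same neighbours had an r of 0.33. In 3062 clusters (98.7%) some regions were higher and others lower in WTAkita, in 23 all were higher and in 17 all were lower.

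Sites that were called in some libraries only were rarer inside the cluster spans than among all distal regions, which include those inside. Of 36462 distal regions inside the spans, 77.2% were called in all 7 libraries and 7.20% in 1, against 57.8% and 13.9% of all 144135 distal regions. The rule asks for regions called in all 7, so these shares are a description. Within the spans, 31 sites (0.085%, against 0.126% of all distal regions) had a peak in the 3 Ctrl libraries and none in WTAkita, and 15 (0.0411%, against 0.0999%) had one in the 4 WTAkita libraries and none in Ctrl.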

How the data were processed

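ATAC-Seq libraries of LSK cells (3 Ctrl, 4 WTAkita) were deposited as 1 peak table each. Per the labels, trimming used Trim Galore 0.4.2 (cutadapt 1.9.1) and alignment to mm10 used Bowtie2 2.3.4.1. After removal of duplicates, MACS2 2.1.4 was run by the authors on every library separately, with no control. Of the deposited values, the ratio of fold enrichment was the main one, with a pseudocount of 1 and no scaling between libraries. The deposited −log10 p values were used for the stricter limit and to solve for pileup and background, which gave whole pileups within 0.02 for nearly all lines. The deposited q values and the score column were not used. Read totals are not given in the peak tables, so the depth behind a value is known only through these pileups (median 40 to 53 in a library).

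Peaks of the 19 autosomes were merged over libraries, and a region took its highest fold enrichment in each. Start sites and genes came from GENCODE vM21 and sequence from the RefSeq copy of the same mm10 assembly. Values were quantile-normalized as log2 over all 105631 regions, summed per cluster and fitted in R 4.3.3 by limma 3.58.1, its variance trend included. Benjamini-Hochberg adjustment ran over 32723 groups or 105631 regions. Single values per library were compared by exact permutation over 35 splits. The fit was tested on simulated data. Python 3.11.15 with pandas 2.3.3 was used for the rest.

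The clusters, lists and tests were chosen with earlier results of these data known. Named clusters are those with most regions, those with the highest sums, the 10 of highest statistic in each direction among those whose groups did not overlap, and the highest of each gene list. For regions, the 5 in each direction were named. Others, such as the arrays of repeated sequence and those ranked by background, were chosen after their values were seen. Alternatives covered the joining distance, the size limit, the peak threshold, the normalization, the background, left-out libraries and a replicate block. A few items are not reported here.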

Additional observations from a re-analysis of the deposited data

Results flagged for a closer look

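The cluster nearest Gata3, a factor of T cell development, had a summed fold enrichment of 38.4 in WTAkita 4, while the other 3 WTAkita libraries lay at 31.5 or below. The gap was 0.917 of the range of the group, above Dixon's 95% critical value of 0.829 for 4 samples. Of 81 groups of 4 libraries examined this was the 1 that stood apart, and chance alone gives about 1 in 20. WTAkita 4 was also the library of highest median fold enrichment. After normalization the log2 sums were 5.21, 5.04, 4.86 and 5.13 in WTAkita 1 to 4, and WTAkita 4 no longer stood apart.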

How the results depend on the processing

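No cluster and no member region passed an adjusted p under 0.05 in limma in any setting run. The number of clusters was 548 when regions were joined within 5000 bp and 915 with a limit of 10 regions, and between 2399 and 4111 in the other settings. Leaving out 1 library gave 3148 to 3335. The difference in the share of summed fold enrichment ran from -0.00053 (without Ctrl 3) to 0.17 percentage points when 1 library was left out. The difference in clusters built in each library alone was 71.8 and turned to -69.2 at a peak p of 1e-05 or lower. With 1 library left out it ran from -54 (without WTAkita 3) to 231.5, and was -16.5 without Ctrl 1 and -16 without WTAkita 4. The Rpl38 cluster turned to 0.0068 with all summit lines summed. The median cluster region lay 4.86 above the median lone region over the genome-wide background. The cause of these changes was not tested.

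Unadjusted counts of clusters, 41 higher and 40 lower, were less stable. They were 0 and 0 without normalization, 1 and 1 without the trend, 0 and 3 with a mean of log2 values, and 68 and 65 with the library median as covariate. They rose to 63 higher over the genome-wide background and to 66 higher with the 3 weakest libraries left out, and ran from 20 to 85 higher and 27 to 70 lower with 1 library left out. Same-numbered libraries of the groups had correlations of 0.373, -0.058 and 0.141 of their deviations. The other pairs ran from -0.307 to 0.216. Whether the numbers pair the libraries cannot be told from so few values. With a replicate block 102 clusters were higher and 120 lower, and 836 regions lower, with 0 adjusted calls. A minimum overlap of 50% of the shorter peak was not run, since each peak lies within its merged region. The settings on the background, on the 3 lowest libraries, on the covariate and on repeated sequence were chosen after seeing the data. Intervals that need read depth were not computed.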
